A study of Mus musculus with 60 samples.

Results

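The 6 libraries described here are RNA-seq libraries of mouse embryonic stem cells (mESCs) that carried the MCM2-2A mutation and had been kept in retinoic acid (RA) for 60 h (T60), out of 60 libraries in 20 groups of the whole series. They were chosen by their labels alone: 3 libraries of dPOLE4 MCM2-2A cells were compared with 3 libraries of Ctrl MCM2-2A cells. All 6 came from cells in which POLE4 is fused to a dTAG degron, a tag that leads to destruction of the protein when the dTAG compound is added, so the controls carried both the tag and the MCM2-2A mutation as well. dPOLE4 cells received dTAG (1 µM) and Ctrl cells received its solvent DMSO for 24 h, after which both were moved to medium without leukemia inhibitory factor and with RA. The cells derive from the E14JU line, of 129/Ola background, and were grown in serum before RA. Each background is represented by 1 clone, so that what is particular to a clone and what is due to MCM2-2A cannot be told apart in any comparison between backgrounds. Whether dTAG stayed in the medium during RA is not given in the sources used here. The libraries of a group are described as biological replicates.

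When a replication fork passes, the histones of the parental DNA are handed to both daughter strands, which carries their marks to the new chromatin. POLE4 is a small subunit of DNA polymerase epsilon, the leading strand polymerase, and helps to place parental H3-H4 on the leading strand. MCM2 is part of the replicative helicase, and the 2A substitutions in its histone-binding domain disturb the passage of parental H3-H4 to the lagging strand. RA, a derivative of vitamin A, binds the nuclear receptors RARα, RARβ and RARγ, which activate genes such as the Cyp26 enzymes, Hox genes and their TALE-class cofactors, while the pluripotency network of mESCs is switched off. Without LIF, RA drives these cells mainly toward neural and, in part, endoderm-like fates. The comparison asks what removal of POLE4 adds when the MCM2 route is already disabled and the cells have to change state.

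Total counts lay between 17715902 and 29186625 per library, the TMM factors between 0.986 and 1.01, and repeats held 6.61% to 7.62% of the counts. Log2 CPM of 2 libraries of the same group correlated with r between 0.989 and 0.994 across features, and those of different groups between 0.984 and 0.988. dPOLE4 MCM2-2A replicate 3 had the highest mitochondrial share, 1.84% against 0.675% to 1.22% in the other 5. Because dTAG acts on the protein, Pole4 RNA is no check of the depletion: it was measured at 21.98, 21.1 and 20.1 CPM (counts scaled to library size) in Ctrl and 21.01, 18.9 and 22.1 CPM in dPOLE4 libraries, a log2 fold change of -0.028 (adjusted p = 0.904). Mcm2 gave 0.085 (adjusted p = 0.575). Of the defining markers, Neurog2 and Mesp1, of neurons and early mesoderm, reached at most 0.169 and 0.221 CPM in any of the 6 libraries, while the summed CPM of 5 pluripotency markers was 279 to 373 in Ctrl and 376 to 485 in dPOLE4. For 6 endoderm markers it was 561 to 617 in Ctrl against 437 to 486 in dPOLE4, and for 7 neural markers 231 to 264 against 178 to 197. For 4 trophoblast markers the sums were 197 to 229 and 237 to 315, for 5 mesoderm markers 10.7 to 12.9 and 11.9 to 15.6, and for 5 fibroblast markers 179 to 194 and 72.3 to 90.7. Fewer cells of a type and less RNA per cell cannot be told apart in such bulk samples, and the part of a shifted cell mixture in the results below was not tested.

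Removal of POLE4 changed genes in both directions. Here and below, a gene or repeat subfamily (a feature) is said to have risen, fallen or changed when edgeR's quasi-likelihood test gave a Benjamini-Hochberg adjusted p below 0.01 and a log2 fold change (dPOLE4 MCM2-2A minus Ctrl MCM2-2A) larger in size than 0.58. Of 18473 features tested, 416 changed (2.25%), of which 197 rose (1.07%) and 219 fell (1.19%). An unadjusted p below 0.05 was found for 4302 features. Groups without overlap were common: in 5367 features (29.1%) all dPOLE4 libraries lay on one side of all Ctrl libraries, 2631 higher (14.2%) and 2736 lower (14.8%). The changed features were mostly protein-coding: 177 of those that rose and 207 of those that fell, beside 20 and 10 other genes and 2 repeat subfamilies that fell. The number depended on single libraries, being 84 without Ctrl MCM2-2A replicate 3, 148 without dPOLE4 MCM2-2A replicate 2 and 215 without Ctrl MCM2-2A replicate 2. It was 309 to 573 without one of the others. In each of these fits 1 of the groups had fewer libraries, also in that with 573, which left out dPOLE4 MCM2-2A replicate 3. Of the 86 genes named by rule that changed, none turned direction with a library left out. They had been chosen by passing the test in these same libraries, so this is no independent support.

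**Figure D1:**
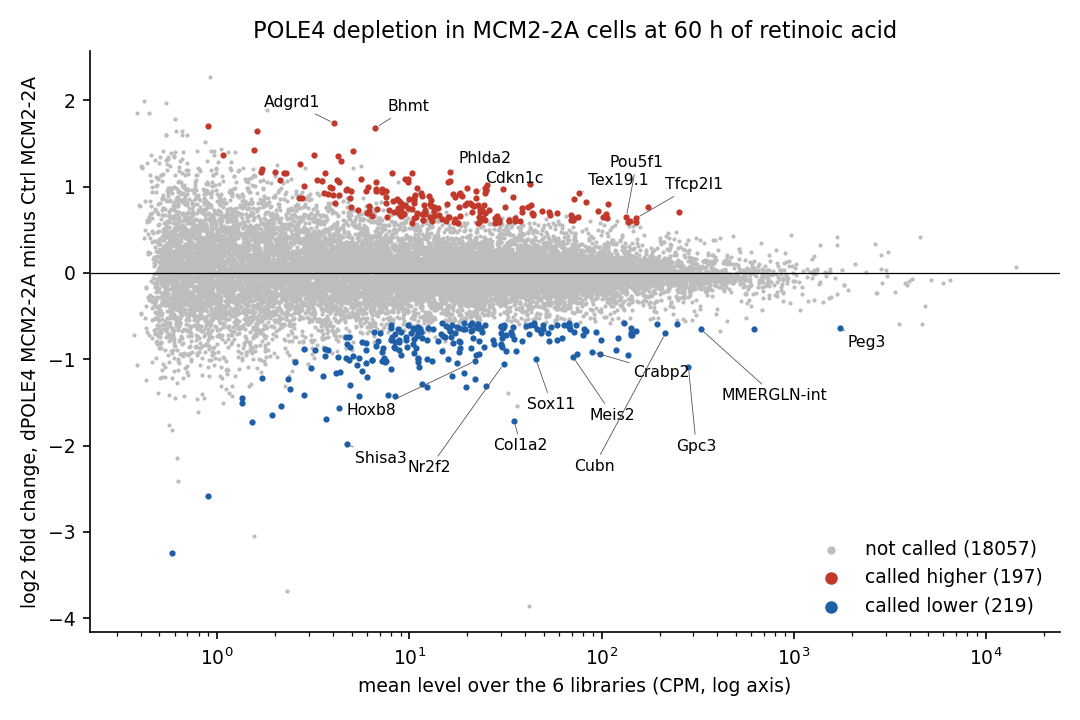
Each point is 1 of 18473 features, plotted by its mean level over the 6 libraries (CPM, log axis) and its log2 fold change in dPOLE4 MCM2-2A against Ctrl MCM2-2A cells at 60 h of RA. The 197 features that rose are red and the 219 that fell are blue, and the labelled features are named in the text, from Shisa3 (-1.99) to Adgrd1 (1.73).

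The fallen features were for the most part genes that RA induces. In Ctrl WT cells, which share no library with the 6 described here, 9144 of 18082 features (50.6%) changed between T0 and T60, of which 4856 (26.9%) rose and 4288 (23.7%) fell. Of the 219 features that fell in dPOLE4 MCM2-2A cells, 181 (82.6%) were among those RA raised in WT cells and 12 (5.48%) among those it lowered. Of the 197 that rose, 77 (39.1%) were lowered by RA in WT cells and 63 (32%) were raised. Seen from the other side, 181 of 4775 RA-raised features tested here fell (3.79%) and 63 rose (1.32%), with 2898 (60.7%) on the negative side of 0 and a median log2 fold change of -0.071. Among 3875 RA-lowered features, 12 fell (0.31%) and 77 rose (1.99%), with 2410 (62.2%) on the positive side and a median of 0.060. The 8699 features that RA did not move in WT cells had a median of 0.0022. Across the 17349 features in both comparisons, Spearman's rho between the log2 fold changes was -0.21, a description over features of 2 sets of 6 libraries.

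Among the genes that make, carry and break down RA, the binding protein and the uptake receptor were lower, while no RA receptor gene passed the test. Crabp2, which carries RA to the nucleus (chromosome 3, 87948666 to 87953376), was measured at 124, 102 and 123 CPM in Ctrl and 67.1, 54.9 and 62.9 CPM in dPOLE4 libraries. Every dPOLE4 library lay below every Ctrl library, and the log2 fold change was -0.91 (standard error (SE) 0.096, adjusted p = 0.000499). For Stra6, the membrane receptor for retinol-binding protein, the values were 151, 155 and 163 CPM and 114, 104 and 96.3 CPM. The groups did not overlap, and Stra6 fell by 0.58 on the log2 scale (SE 0.074, adjusted p = 0.001). Cyp26b1, an enzyme that degrades RA, was at 327, 311 and 331 CPM in Ctrl and 248, 192 and 220.1 CPM in dPOLE4, again apart, but its log2 fold change of -0.55 (SE 0.086, adjusted p = 0.00277) was below the fold threshold. Its relative Cyp26a1, a direct RA target, gave -0.059 (adjusted p = 0.675), and the receptor genes Rara and Rarb gave -0.15 and -0.14 (adjusted p = 0.28 and 0.514). Rarg gave 0.29 (adjusted p = 0.0273). Tshz1, a zinc finger gene, fell (-0.78, adjusted p = 0.000396), and the homeobox gene Cdx1 rose (0.65, adjusted p = 0.00314). In all, 1 of 22 tested members of this list rose and 3 fell (4.55% and 13.6%, against 1.07% and 1.19% of all features). The median was -0.13 against 0.0039 over all features.

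The TALE homeobox factors, which bind DNA together with Hox proteins and are induced by RA, were lower for the most part. Of 9 tested members 3 fell and none rose (33.3% fell, against 1.19% of all features), the median was -0.46, and 8 of 9 were negative. Meis2 (chromosome 2, 115863064 to 116065839) had 99.7, 86.1 and 96.6 CPM in the Ctrl libraries. In dPOLE4 it had 47.7, 42.5 and 53.4 CPM, each value below every control, and its log2 fold change was -0.97 (SE 0.093, adjusted p = 0.000489). Meis1 went from 87.2, 75.1 and 85.2 CPM to 53.3, 51.4 and 55.7 CPM, with no overlap and a log2 fold change of -0.62 (SE 0.078, adjusted p = 0.000936). Pbx3 and Pknox2, with -0.46 and -0.51, did not pass the test (adjusted p = 0.0193 and 0.0252).

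Hox genes, which set position along the body axis and open in order along each cluster during RA exposure, were lower at most positions, with the falls in 2 of the 4 clusters. The difference between clusters was not tested. Of 35 tested members, 9 fell and none rose (25.7% fell, against 1.19% of all features), 30 were negative and the median was -0.44. In the HoxB cluster on chromosome 11, 6 of 10 genes fell (median -0.63), and in the HoxC cluster on chromosome 15, 3 of 7 (median -0.83). None of 11 HoxA and none of 7 HoxD genes changed (medians -0.20 and -0.34). By position, 6 of 15 genes of paralogue groups 5 to 9 fell and all 15 were negative (median -0.65), 3 of 12 of groups 1 to 4 fell (median -0.50), and none of 8 of groups 10 to 13 changed (median 0.011). Hoxb8 (chromosome 11, 96281905 to 96285315) was at 34.8, 25.6 and 28.2 CPM in Ctrl and 18.0, 12.7 and 12.998 CPM in dPOLE4. The lowest Ctrl library lay above the highest dPOLE4 library, and the log2 fold change was -1.02 (SE 0.15, adjusted p = 0.00198). Hoxc8 had 10.8, 9.37 and 9.86 CPM and 4.98, 3.95 and 5.67 CPM, also apart, with -1.03 (SE 0.15, adjusted p = 0.00181). Hoxb5, Hoxb6 and Hoxb9 fell by 0.98, 0.87 and 0.62 on the log2 scale (adjusted p = 0.00255, 0.00164 and 0.00163), and Hoxb2, Hoxb3, Hoxc4 and Hoxc5 by 0.65, 0.59, 0.99 and 0.83. None of the 35 passed the test without Ctrl MCM2-2A replicate 3 or without dPOLE4 MCM2-2A replicate 2, and 5 to 9 fell in the other fits with 1 library left out, while 29 to 32 were negative in all 6.

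**Figure D2:**
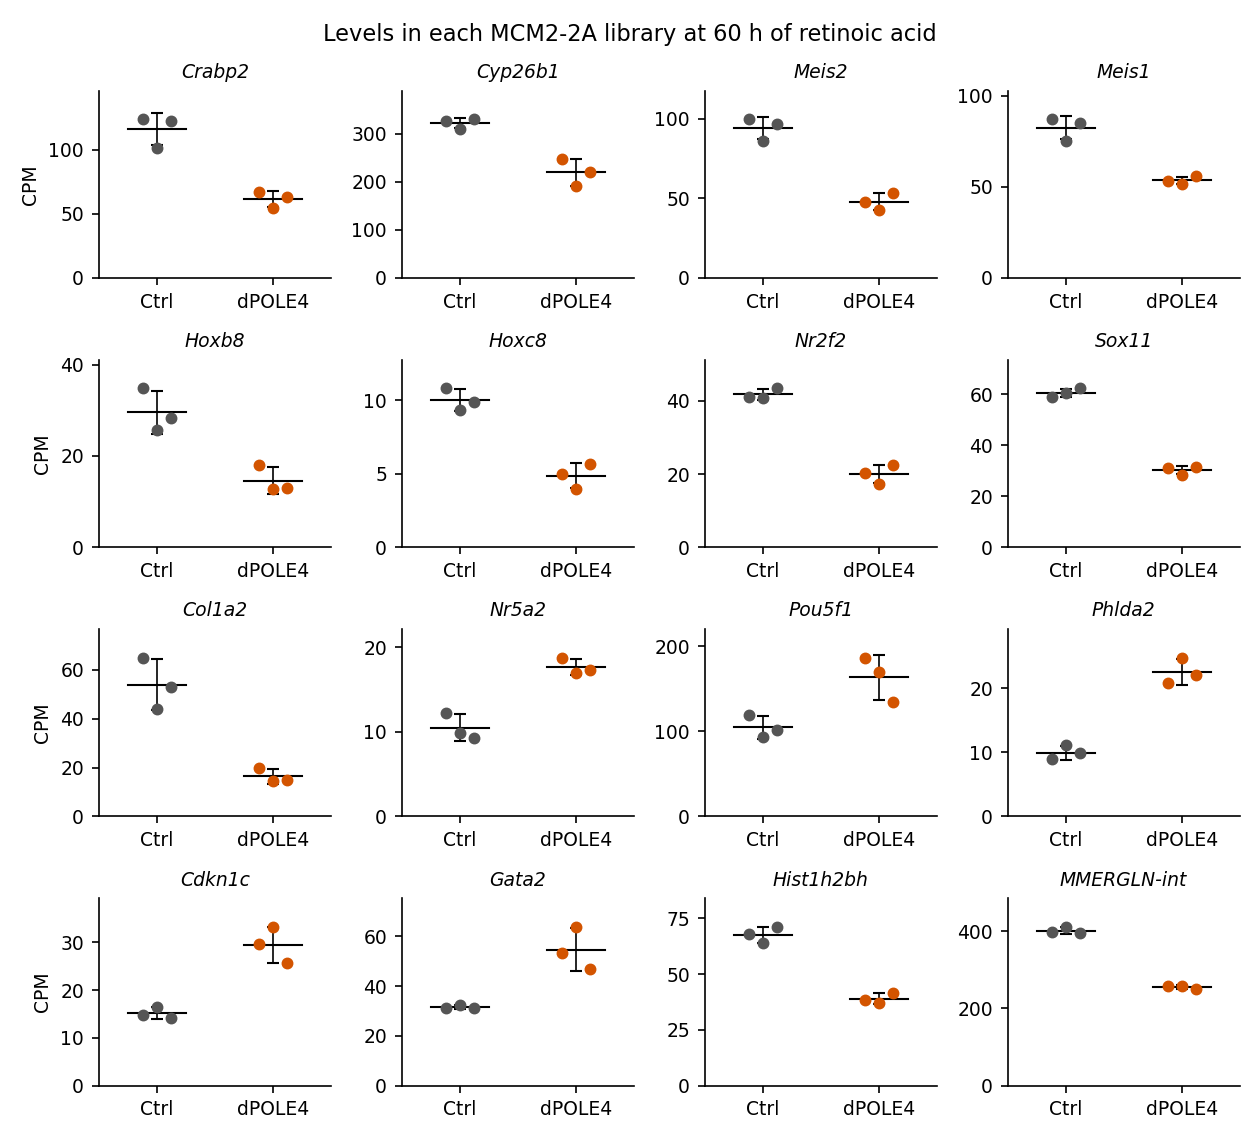
Each dot is the level (CPM, linear axis from 0) of 1 library, grey for Ctrl MCM2-2A and orange for dPOLE4 MCM2-2A at 60 h of RA, with the group mean (bar) and SD (whisker, n = 3). The 16 features were picked with their values known. In each, the 3 dPOLE4 libraries lie on one side of the 3 Ctrl libraries, as they do in 29.1% of all tested features.

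Several neural genes were lower. Of 25 tested members of the neural list 6 fell and none rose (24% fell, against 1.19% of all features), and 3 fell without Ctrl MCM2-2A replicate 3. The median was -0.30, with 16 members negative and 9 positive. The largest positive value was that of Neurod1, at a mean of 0.51 CPM in Ctrl and 1.42 CPM in dPOLE4. Its groups lay apart, but it did not pass the test (1.42, adjusted p = 0.0128). Of the 34 listed genes, 9 were too low to test, Neurog1, Neurog2 and Olig2 among them. Sox11, a SoxC factor of young neurons, had 58.9, 60.3 and 62.3 CPM in Ctrl and 31.1, 28.5 and 31.5 CPM in dPOLE4 libraries. The spread within groups was small, and the log2 fold change was -0.99 (SE 0.077, adjusted p = 0.000335). For Nr2f2, an orphan nuclear receptor also known as COUP-TFII, the levels were 41.1, 40.7 and 43.4 CPM and 20.4, 17.4 and 22.4 CPM, and for Nr2f1 they were 11.5, 10.1 and 12.3 CPM and 5.31, 3.78 and 3.59 CPM. Neither overlapped, with log2 fold changes of -1.06 (SE 0.099, adjusted p = 0.000489) and -1.42 (SE 0.16, adjusted p = 0.000655). N-cadherin (Cdh2) fell by 0.71, the adhesion molecule Ncam1 by 0.61 and Pax6 by 0.88 on the log2 scale. The progenitor filament Nes was lower in every dPOLE4 library (-0.45, adjusted p = 0.00335) without reaching the fold threshold. The early neural marker Sox1 was low, at 1.76, 2.65 and 2.43 CPM in Ctrl and 1.66, 1.01 and 1.12 CPM in dPOLE4, and did not pass the test (-0.87, adjusted p = 0.059). The neuronal tubulin Tubb3 gave 0.035 (adjusted p = 0.91).

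Endoderm genes and some mesenchyme genes were lower as well. All 24 tested endoderm genes were negative (median -0.32) and 3 fell (12.5%, against 1.19% of all features): Cubn, a receptor of visceral endoderm, from 263, 263 and 271 CPM to 161, 166 and 165 CPM (-0.70, SE 0.059, adjusted p = 0.000396), Foxa2 (-0.63, adjusted p = 0.00633) and Pdgfra (-0.61, adjusted p = 0.0017). At T0, T12 and T24 the log2 fold changes of Cubn were -0.84, -1.01 and -0.91. Gata4, Gata6 and Sox17, the endoderm regulators, gave -0.34, -0.32 and -0.34 (adjusted p = 0.0134, 0.0238 and 0.0215). Of the 24, 1 fell without Ctrl MCM2-2A replicate 1, Ctrl replicate 3 or dPOLE4 replicate 2. Among 7 tested fibroblast markers, the 3 fibrillar collagens fell (42.9%, against 1.19% of all features). Col1a2 was at 64.9, 43.9 and 52.8 CPM in Ctrl and 19.7, 14.7 and 14.7 CPM in dPOLE4, with no overlap and a log2 fold change of -1.72 (SE 0.15, adjusted p = 0.000409). Col3a1 and Col1a1 fell by 1.32 and 0.94 on the log2 scale. In each of the fits with 1 library left out, 3 of the 7 fell. In contrast Pdgfrb was higher in every dPOLE4 library (0.58, adjusted p = 0.00311), just under the fold threshold. Of 15 tested genes of mesoderm and primitive streak, Meox1, a somite factor, went from 7.09, 4.62 and 5.17 CPM to 1.77, 2.03 and 1.41 CPM (-1.69, SE 0.22, adjusted p = 0.00113) and Twist1 fell by 1.01 on the log2 scale (adjusted p = 0.00311), while Hand1 rose (0.93, adjusted p = 0.00342). Of these 15, 13.3% fell and 6.67% rose, against 1.19% and 1.07% of all features. None of the 15 rose, and 1 fell, without Ctrl MCM2-2A replicate 1, Ctrl replicate 3 or dPOLE4 replicate 2. The mesenchymal genes Vim and Zeb2 fell by 0.60 and 0.89, and the integrin Itgb4 rose by 0.69. In the list of epithelial and mesenchymal genes, 3 of 16 fell and 1 rose (18.8% and 6.25%, against 1.19% and 1.07% of all features). Of these 16, 8 were positive and 8 negative, with a median of 0.011. None of the 16 fell or rose without Ctrl MCM2-2A replicate 3.

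Among signalling genes, some rose and others fell. In the BMP list 3 of 14 fell (21.4%, against 1.19% of all features), namely the ligands Bmp4 and Bmp2 (-0.75 and -0.65, adjusted p = 0.00324 and 0.00344) and the target Msx1 (-0.68, adjusted p = 0.00147). Among 19 tested Wnt genes, Wnt3 and Wnt8a rose (0.69 and 0.70), and Cdx1 with them, while the Wnt target Sp5 fell from 14.3, 13.5 and 16.5 CPM to 7.91, 7.33 and 6.98 CPM (-0.99, adjusted p = 0.00081). Thus 15.8% of the Wnt genes rose and 5.26% fell, against 1.07% and 1.19% of all features. In the FGF list the feedback phosphatase Dusp6 and the ETS factor Etv1 fell (-0.60 and -0.79), 2 of 19 (10.5%, against 1.19% of all features). Medians were -0.13, 0.014 and 0.025 for the BMP, Wnt and FGF lists. In the Nodal list 2 of 11 rose (18.2%, against 1.07% of all features), the ligand Gdf3 and the co-receptor Tdgf1. Leaving out 1 library removed many of these calls. No BMP gene fell without Ctrl MCM2-2A replicate 3, no Wnt gene rose without Ctrl replicate 3 or dPOLE4 replicate 2, no FGF gene fell without Ctrl replicate 1 or dPOLE4 replicate 2, and no Nodal gene rose without Ctrl replicate 2, Ctrl replicate 3 or dPOLE4 replicate 2.

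Genes of naive pluripotency were higher. Of 13 tested members of the naive and self-renewal list 5 rose and none fell (38.5%, against 1.07% of all features), all 13 were positive, and the median was 0.63. The list was drawn up with results of these samples known, so its direction is not independent evidence. Pou5f1, which encodes OCT4, was measured at 119.6, 93.4 and 101.4 CPM in Ctrl and 187, 169.5 and 135 CPM in dPOLE4 libraries. The groups did not overlap although dPOLE4 replicate 3 lay nearest to Ctrl, and the log2 fold change was 0.64 (SE 0.12, adjusted p = 0.00666). For Nr5a2, a nuclear receptor that can replace OCT4 in reprogramming, the levels were 12.3, 9.92 and 9.32 CPM and 18.8, 17.0 and 17.3 CPM (0.75, SE 0.12, adjusted p = 0.00265). Tfcp2l1 went from 129.8, 117 and 107 CPM to 209.7, 187 and 152 CPM (0.63, adjusted p = 0.0047), and Pramel7 and Pramel6 rose by 0.73 and 0.73 on the log2 scale. Nanog, Klf4 and Klf2 were higher in every dPOLE4 library, with 0.44, 0.37 and 0.76, and did not pass the test (adjusted p = 0.0317, 0.0353 and 0.0195). Dppa3 gave 1.08 (adjusted p = 0.0116), Pecam1 0.52, Prdm14 0.44, Zfp42 0.24 and Sox2 0.15, the last 4 with overlapping groups. None of the 13 passed the test without Ctrl MCM2-2A replicate 2, Ctrl replicate 3 or dPOLE4 replicate 2. Without dPOLE4 replicate 1, Ctrl replicate 1 or dPOLE4 replicate 3, 1, 4 and 6 rose, and 12 or 13 of 13 were positive in all 6 fits.

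Among 23 other genes of the pluripotent state, 4 rose and 1 fell (17.4% and 4.35%, against 1.07% and 1.19% of all features). Tex19.1, which protects germ and stem cells against retrotransposons, went from 58.9, 46.7 and 53.04 CPM to 107, 103 and 92.1 CPM (0.93, SE 0.093, adjusted p = 0.000499). Tdgf1, the Nodal co-receptor Cripto, was at 20.4, 15.0 and 15.4 CPM in Ctrl and 39.0, 31.5 and 28.5 CPM in dPOLE4 (0.96, SE 0.14, adjusted p = 0.00205). Dppa2 and Gdf3 rose by 0.63 and 0.65 on the log2 scale. Against these, Lin28b, an inhibitor of let-7 maturation that RA raised in Ctrl WT cells (log2 0.88), fell from 39.1, 39.6 and 39.1 CPM to 23.5, 17.9 and 23.7 CPM (-0.85, SE 0.11, adjusted p = 0.000911). Of the 23, 1 rose without Ctrl MCM2-2A replicate 3 and 2 without Ctrl replicate 2 or dPOLE4 replicate 2. Of 8 tested formative genes, which mark the step between naive and primed cells, 1 fell (12.5%, against 1.19% of all features) and none rose. This was Foxd2, at 1.91, 2.48 and 2.80 CPM in Ctrl and 0.884, 1.184 and 1.02 CPM in dPOLE4 (-1.22, adjusted p = 0.00958). Sox4 was lower in every dPOLE4 library (-0.55, adjusted p = 0.00157), Pou3f1 gave 0.66 (adjusted p = 0.0215), Krt18 0.20, Lef1 -0.17, Zic2 -0.26, Zic5 0.16 and Fgf5 -0.17. Of 5 early RA genes none changed, and Lefty2, Lefty1, Sox3 and Sox1 gave -0.54, 0.086, 0.044 and -0.87, with adjusted p between 0.059 and 0.925.

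**Figure D3:**
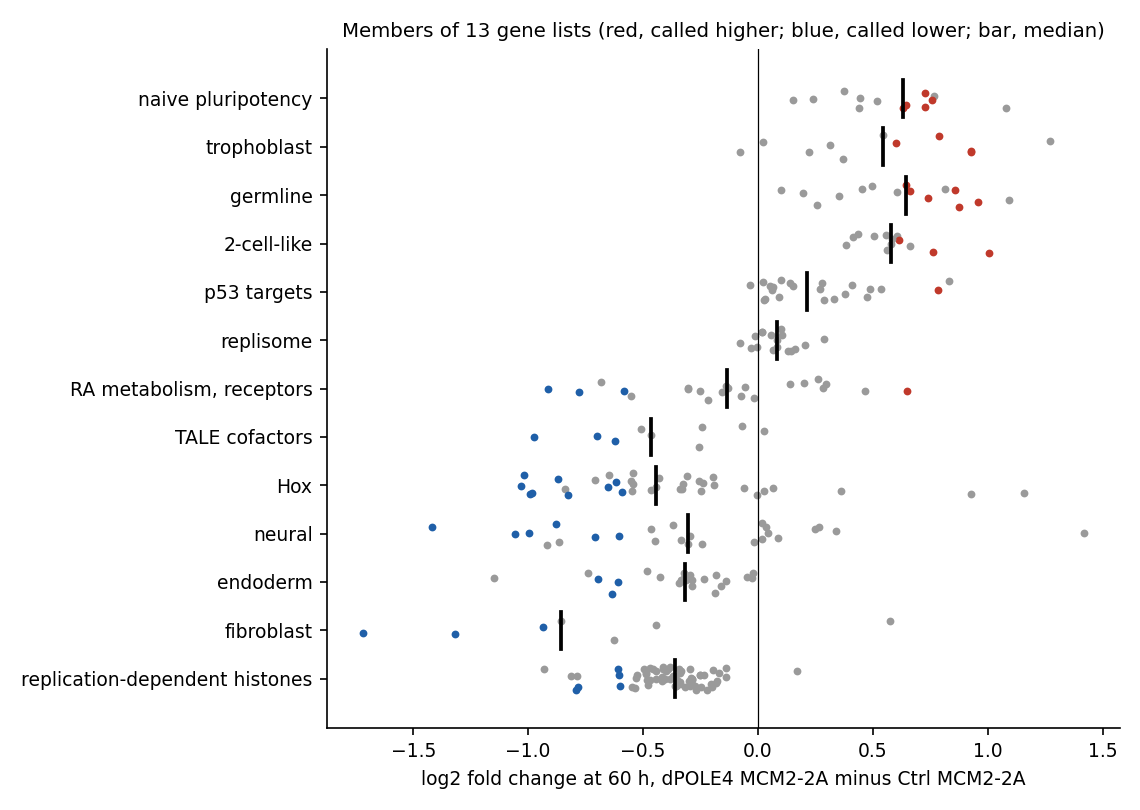
Each point is a tested member of 1 of 13 gene lists, plotted by its log2 fold change at 60 h of RA (dPOLE4 MCM2-2A minus Ctrl MCM2-2A), red where it rose, blue where it fell and grey otherwise, with the list median as a bar. The medians run from 0.64 for the germline list and 0.63 for naive pluripotency to -0.86 for fibroblast markers.

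Part of the trophoblast and germline genes rose. Of 11 trophoblast genes 4 rose and none fell (36.4% rose, against 1.07% of all features, median 0.55). Gata2 was at 31.1, 32.4 and 31.2 CPM in Ctrl and 53.2, 63.8 and 46.9 CPM in dPOLE4, with 0.79 (SE 0.11, adjusted p = 0.00144), and Tfap2c at 29.9, 28.9 and 25.7 CPM and 42.7, 43.0 and 42.6 CPM, with 0.60 (SE 0.083, adjusted p = 0.0016). Hand1 and Ascl2 rose by 0.93 and 0.92 on the log2 scale. Cdx2, Elf5 and Gata3, the markers most particular to trophoblast stem cells, did not pass the test, and Elf5 stayed below 1 CPM in all 6 libraries. None of the 11 passed it without Ctrl MCM2-2A replicate 3, 1 rose without dPOLE4 replicate 2 and 2 without Ctrl replicate 1. In the germline list 6 of 15 rose (40%, against 1.07% of all features, median 0.64), and all 15 were positive. They encode meiotic and piRNA factors, such as Mov10l1 (19.6, 16.0 and 18.6 CPM to 27.8, 27.9 and 28.9 CPM, 0.64, adjusted p = 0.00205), the testis bromodomain protein Brdt (0.86, adjusted p = 0.00265), Taf7l (0.66, adjusted p = 0.00393), Stk31 (0.74) and Slc25a31 (0.96), and Sycp1 of the synaptonemal complex (0.87). None of the 15 passed the test without Ctrl MCM2-2A replicate 2 or replicate 3, and 2 to 4 rose in the other fits with 1 library left out. The 13 tested features of the 2-cell-like state were all positive (median 0.58), and 3 rose (23.1%, against 1.07% of all features). These were Zscan4c, from 64.7, 50.97 and 48.8 CPM to 79.5, 74.9 and 96.9 CPM (0.61, adjusted p = 0.00901), Tmem92 (0.76) and Duxf3 (1.00). Zscan4 genes are near-identical copies, so reads may have been split among them. MERVL-int and its LTR MT2_Mm gave 0.41 and 0.44 (adjusted p = 0.0531 and 0.0355). None of the 13 features passed the test in 4 of the 6 fits with 1 library left out, those without Ctrl MCM2-2A replicate 2, Ctrl replicate 3, dPOLE4 replicate 1 and dPOLE4 replicate 2, and 7 and 2 rose without Ctrl replicate 1 and dPOLE4 replicate 3.

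Imprinted genes moved both ways. Of 24 tested, 2 rose and 4 fell (8.33% and 16.7%, against 1.07% and 1.19% of all features). The 2 that rose are maternally expressed neighbours on distal chromosome 7, both growth restrainers of the placenta and embryo. Phlda2 (chromosome 7, 143501545 to 143503150) went from 8.90, 11.1 and 9.81 CPM in Ctrl to 20.7, 24.8 and 22.1 CPM in dPOLE4, with no overlap and a log2 fold change of 1.17 (SE 0.11, adjusted p = 0.000489). Cdkn1c (chromosome 7, 143458339 to 143461050), a cyclin-dependent kinase inhibitor, went from 14.8, 16.5 and 14.2 CPM to 29.5, 33.2 and 25.6 CPM (0.95, SE 0.11, adjusted p = 0.000727). Those that fell are paternally expressed. Peg3 and Usp29 lie side by side on proximal chromosome 7 and went from 1963, 2162 and 2189 CPM to 1321, 1327 and 1412 CPM and from 17.0, 18.0 and 17.7 CPM to 8.403, 7.84 and 9.75 CPM. Neither pair of groups overlapped, with log2 fold changes of -0.64 (SE 0.070, adjusted p = 0.000568) and -1.02 (SE 0.11, adjusted p = 0.000501). Mest and Nnat fell by 0.64 and 0.79 on the log2 scale. In the Dlk1-Meg3 domain the maternal RNAs Meg3, Rian and Mirg were lower in every dPOLE4 library (-0.56, -0.52 and -0.57), just under the fold threshold, whereas Dlk1 gave 0.22 (adjusted p = 0.0833). H19 and Igf2 gave 0.34 and 0.38 (adjusted p = 0.0237 and 0.0118). No count here distinguishes the parental alleles.

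Replication-dependent histone genes, which are transcribed in S phase and supply the histones for new DNA, were lower almost without exception. Of 68 tested, 67 were negative, the median was -0.36, and in 52 every dPOLE4 library lay below every Ctrl library (76.5%, against 14.8% of all features). Of the 68, 5 passed the test and fell (7.35%, against 1.19% of all features). By type the medians were -0.42 for 19 H2A, -0.35 for 18 H2B, -0.36 for 12 H3, -0.34 for 13 H4 and -0.37 for 6 H1 genes. Hist1h2bh was at 67.9, 63.8 and 71.1 CPM in Ctrl and 38.3, 37.0 and 41.6 CPM in dPOLE4, a log2 fold change of -0.79 (SE 0.079, adjusted p = 0.000499). Hist3h2ba, Hist1h2bm and Hist1h2ae had 36.1, 31.5 and 35.7 CPM, 37.2, 39.6 and 36.0 CPM and 53.6, 52.9 and 54.7 CPM in Ctrl. In dPOLE4 they had 20.4, 19.06 and 20.5 CPM, 23.5, 26.6 and 24.0 CPM and 36.8, 33.2 and 36.1 CPM, all below the controls, with -0.78, -0.61 and -0.60 (adjusted p = 0.000655, 0.0017 and 0.000936). Hist3h2a fell as well (-0.60). These genes are near-identical to each other, so single values are uncertain where reads could be shared, and their RNA is mostly without a poly(A) tail, which the rRNA-depleted libraries retain. Their number that fell ranged from 2, without Ctrl MCM2-2A replicate 3, to 8 with other libraries left out, and 67 or 68 stayed negative. Of the replacement histones, which are made outside S phase, the linker histone H1f0 fell from 148, 103 and 135 CPM to 72.2, 64.8 and 64.5 CPM (-0.93, adjusted p = 0.000911), and all 10 were negative (median -0.11). At T0, before RA, Hist1h2bh, Hist3h2ba, Hist1h2ae, Hist1h2bm and H1f0 gave -0.91, -1.29, -0.84, -0.89 and -0.86.

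The promoters of the 5 fallen histone genes are shown because these genes moved together. RefSeq promoters (GRCm38.p6) were matched for 61 of 69 listed histone genes. The 150 bases that end just before the start site are given 5′ to 3′ on the gene's strand, with 3 motifs in capitals wherever they occur on either strand: the octamer ATTTGCAT (or ATGCAAAT), CCAAT (or ATTGG) and TATAAA (or TTTATA). The regions are chr13:23543445-23543594 (minus strand, Hist1h2bh), chr11:58948761-58948910 (plus, Hist3h2ba), chr13:23571221-23571370 (minus, Hist1h2ae), chr13:21721894-21722043 (plus, Hist1h2bm) and chr11:58954535-58954684 (plus, Hist3h2a).
Hist1h2bh: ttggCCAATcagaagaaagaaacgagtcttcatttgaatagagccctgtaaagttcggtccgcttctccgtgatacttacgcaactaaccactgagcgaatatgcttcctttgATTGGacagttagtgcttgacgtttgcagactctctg
Hist3h2ba: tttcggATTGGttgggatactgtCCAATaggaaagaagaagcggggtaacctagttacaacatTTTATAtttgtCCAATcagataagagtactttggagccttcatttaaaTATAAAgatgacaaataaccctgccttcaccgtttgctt
Hist1h2ae: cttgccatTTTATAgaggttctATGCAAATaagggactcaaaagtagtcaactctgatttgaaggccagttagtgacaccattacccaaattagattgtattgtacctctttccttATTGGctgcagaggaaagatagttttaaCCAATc
Hist1h2bm: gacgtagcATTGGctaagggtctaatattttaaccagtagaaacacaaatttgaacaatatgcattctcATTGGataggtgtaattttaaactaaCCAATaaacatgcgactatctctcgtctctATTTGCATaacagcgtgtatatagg
Hist3h2a: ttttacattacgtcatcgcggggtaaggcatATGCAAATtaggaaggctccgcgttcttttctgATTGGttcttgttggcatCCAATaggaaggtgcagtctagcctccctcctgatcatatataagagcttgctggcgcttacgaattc
Hist1h2ae, Hist1h2bm and Hist3h2a hold 1 octamer each in this window, and Hist1h2bh and Hist3h2ba hold none. All 5 hold CCAAT at least 2 times. In the 250 bases before the start, the octamer occurs in 526 of 32851 promoters of the table (1.6%), in 7 of 17 H2A (41.2%) and 7 of 16 H2B genes (43.8%), and in none of 6 H1, 10 H3 and 12 H4 genes. CCAAT occurs in 33.8% of all promoters and in 50 of 61 histone promoters (82%), and TATAAA in 12.4% and 29 of 61 (47.5%). A match of letters shows neither binding nor a cause of the lower levels.

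No gene of DNA replication, histone chaperones or chromatin silencing passed the test. None of 17 replisome genes changed (median 0.082), Pole, the catalytic partner of POLE4, giving 0.14 (adjusted p = 0.197) and Mcm4 and Mcm5 0.16 and 0.20. None of 17 histone chaperones (median -0.0051), 25 Polycomb genes (-0.029), 10 genes of DNA methylation (0.058) and 15 of H3K9 silencing (-0.10) changed. With 2.25% of all features changed, none in lists this small lies near that share and is no result about these genes. Of the 25 Polycomb genes, 1 rose with DESeq2, with the replicate block and with all 4 groups of T60 in the fit. The lowest p of these lists was that of the PRC2 cofactor Mtf2 (0.34, adjusted p = 0.0131), and among the chaperones that of Hira (-0.27, adjusted p = 0.042). Among 22 p53 targets 21 were positive (median 0.21) and 1 rose (4.55%, against 1.07% of all features). The 1 that rose, Pmaip1 (NOXA), went from 14.5, 14.7 and 13.8 CPM to 23.5, 22.3 and 28.2 CPM (0.78, adjusted p = 0.00133), a call lost without Ctrl MCM2-2A replicate 3. Btg2, Mdm2 and Ddit4l were higher in every dPOLE4 library, with 0.53, 0.47 and 0.41 (adjusted p = 0.000911, 0.00454 and 0.011), and at T0 Btg2 and Mdm2 gave 0.75 and 0.39. Of 26 cell cycle genes, Cdkn1c rose and Myc fell (3.85% each, against 1.07% and 1.19% of all features). Myc went from 52.1, 61.6 and 66.9 CPM to 35.8, 38.8 and 40.8 CPM (-0.65, adjusted p = 0.00259). Cdkn2a and Cdkn2b, inhibitors of the G1 kinases, were lower in every dPOLE4 library (-0.46 and -0.49). None of 20 genes of hypoxia and glycolysis changed, with Eno1 and Ldha at -0.38 and -0.48, and none of 13 of the integrated stress response, with Asns at 0.35. None of 25 mitochondrial transcripts changed, although their median of 0.12 became -0.36 without dPOLE4 MCM2-2A replicate 3.

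Of 857 tested repeat subfamilies, 2 fell and none rose, both internal parts of endogenous retroviruses. They belong to the LTR class, of which 0.396% fell, against 1.19% of all features. MMERGLN-int was at 399, 412 and 395 CPM in Ctrl and 259, 257 and 250.4 CPM in dPOLE4, with -0.65 (SE 0.059, adjusted p = 0.000421), and IAPEY4_I-int at 42.8, 48.0 and 42.1 CPM and 23.2, 25.2 and 29.8 CPM, with -0.76 (SE 0.10, adjusted p = 0.00144). For MMERGLN-int the earlier times gave -0.65, -0.70 and -0.77 (T0, T12 and T24). With classes assigned by subfamily name, on the positive side of 0 were 357 of 505 LTR subfamilies (median 0.10) and 92 of 137 LINE subfamilies (median 0.064). Among all features 9372 of 18473 were positive. The young L1 subfamilies L1Md_Gf, L1Md_T and L1Md_A were higher in every dPOLE4 library, with 0.53, 0.42 and 0.32 (adjusted p = 0.000737, 0.0215 and 0.0191). In all, 11 of the 137 LINE subfamilies lay apart on the higher side, where 14.2% of all features did (2631 of 18473).

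The 10 features with the largest rise among those with a mean of at least 1 CPM began with Adgrd1, an adhesion G protein-coupled receptor, at 1.31, 2.17 and 2.10 CPM in Ctrl and 4.86, 7.56 and 6.40 CPM in dPOLE4 (1.73, SE 0.22, adjusted p = 0.00107). Bhmt, betaine-homocysteine methyltransferase, followed with 2.92, 3.89 and 2.53 CPM and 11.6, 9.47 and 9.60 CPM (1.68, SE 0.17, adjusted p = 0.000499). Among the others were Ltf, Mybpc1, Clec10a, Mst1, Vtcn1, Gm5989 and Anxa8, with log2 fold changes of 1.26 to 1.64, all at means under 10 CPM. The 10 largest falls, by the same rule, were led by Shisa3, an endoplasmic reticulum protein that restrains Wnt and FGF receptors, at 9.76, 5.75 and 7.17 CPM and 2.76, 1.64 and 1.31 CPM (-1.99, SE 0.27, adjusted p = 0.00147). Osr1, Hand2 and Meox1, transcription factors of mesoderm derivatives, fell by 1.73, 1.56 and 1.69 on the log2 scale, and the axon guidance ligand Sema3a by 1.54. Col1a2, Gm45889, Slc2a6 and Car14 were among the rest. Of the 6 fits with 1 library left out, Mybpc1, Slc2a6 and Car14 were lost in 5, and Ltf, Mst1, Anxa8 and Osr1 in 4. Adgrd1, Bhmt, Gm5989, Hand2, Meox1 and Col1a2 were lost in none.

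More features differed at later times of RA. These are also later times after dTAG was first added, and the parts of the 2 cannot be told apart here. The number at T60 was 84 to 573 with 1 library left out, and the earlier times were not refitted in that way. dPOLE4 and Ctrl MCM2-2A cells, each time with 3 libraries of their own, differed in 13 of 18171 features at T0 (0.0715%), 73 of 18077 at T12 (0.404%), 188 of 18441 at T24 (1.02%) and 416 of 18473 at T60 (2.25%). Of the 197 features that rose at T60, 186 of 196 tested were positive at T24 and 163 of 194 at T0, with medians of 0.53 and 0.28, and 38 and 2 of them had risen by then, where 0.515% and 0.022% of all features had. Of the 219 that fell, 173 of 203 tested were negative at T24 and 111 of 180 at T0, with medians of -0.35 and -0.071, and 27 and 3 had fallen, where 0.504% and 0.0495% of all features had. Both sets were chosen by their size at T60, which alone makes medians at other times smaller. The difference between the effects at T60 and T0 itself passed the test for 50 of 19656 features (0.254%), 34 lower (0.173%) and 16 higher (0.0814%) at T60 in relation to T0, and 2436 had an unadjusted p below 0.05. This number rested on single libraries: it was 0 without Ctrl MCM2-2A replicate 2 or replicate 3, at an unadjusted p below 0.05 for 2290 and 1977 features, and 7, 10 and 14 without dPOLE4 replicate 2, dPOLE4 replicate 1 and Ctrl replicate 1. DESeq2 gave 178. Among named genes, Crabp2 (log2 difference -0.94), Lin28b (-1.07), Sox11 (-0.80), Usp29 (-1.26) and Peg3 (-0.75) had an effect at T60 below that at T0, and Phlda2 (1.04), Tdgf1 (1.13), Gdf3 (0.98) and Nr5a2 (0.76) one above it. Meis2 gave -0.68 at T12 and -0.93 at T24 against 0.19 at T0, and Sox11 passed through -0.21, -0.44 and -0.76. Phlda2 and Nr2f2 gave -0.10 (SE 0.098) and 0.37 (SE 0.31) at T24. Lef1 gave -1.43 at T0 and -0.17 at T60.

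**Figure D4:**
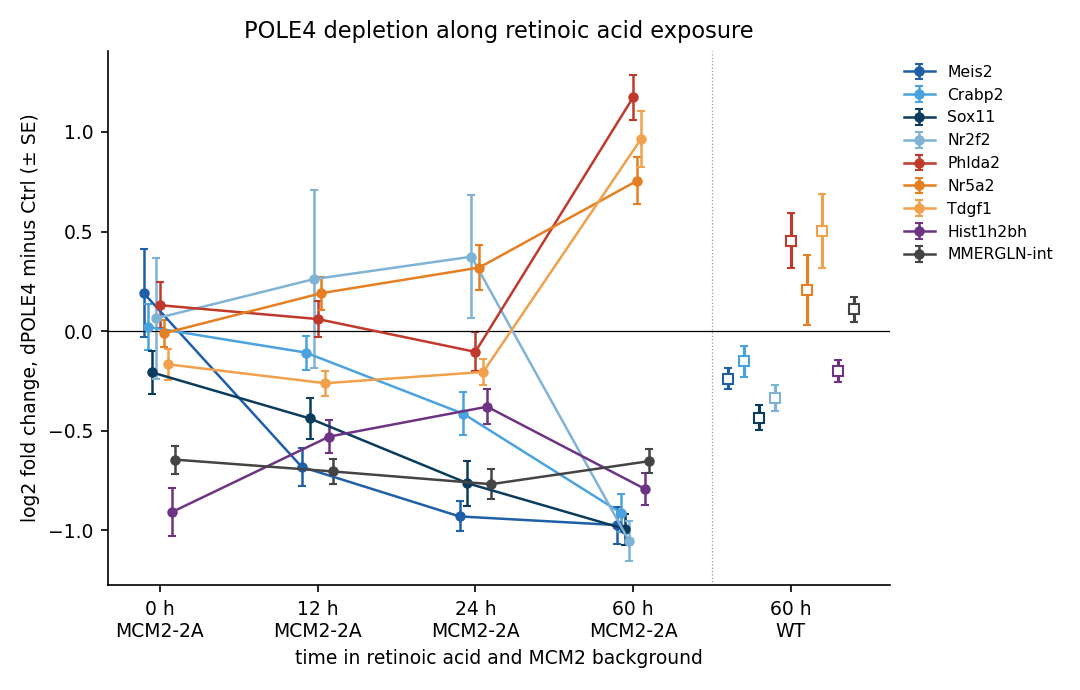
Points are log2 fold changes (dPOLE4 minus Ctrl, ± SE, 3 libraries per group) of 9 features in MCM2-2A cells at 0, 12, 24 and 60 h of RA (filled, joined by lines) and in WT cells at 60 h (open squares). Meis2 and Sox11 lie below 0 from 12 h on, Crabp2 reaches -0.91 and Phlda2 1.17 at 60 h, and MMERGLN-int lies near -0.65 to -0.77 throughout in MCM2-2A and at 0.11 in WT.

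The same depletion in WT cells, measured in 6 other libraries at T60, changed 33 of 17116 features (0.193%), 10 of them higher (0.0584%) and 23 lower (0.134%). Of the features that rose in MCM2-2A cells 3 rose there too, and of those that fell 13 fell. Of the features that rose in MCM2-2A cells, 152 of 183 tested were positive in WT cells too, with a median of 0.28 against 0.76 in MCM2-2A, and of those that fell 202 of 219 were negative, with -0.29 against -0.78. These features were chosen by their size in MCM2-2A, which alone makes medians elsewhere smaller, so the medians are no test of a difference. Tested directly, the effect differed between the backgrounds for 19 of 18982 features (0.1%), 13 of them lower (0.0685%) and 6 higher (0.0316%) in MCM2-2A, and 1922 had an unadjusted p below 0.05. DESeq2 gave 90. The number was 1 without Ctrl MCM2-2A replicate 3, 5 without dPOLE4 replicate 2 and 12 without Ctrl replicate 2, and 38 without dPOLE4 replicate 3. Of the 19, 11 had fallen and 4 had risen at T60 in MCM2-2A, and 4 had not passed the test there. Meis2 had -0.97 in MCM2-2A and -0.24 in WT (difference -0.72, SE 0.11, adjusted p = 0.0057), Nr2f2 -1.06 and -0.33 (-0.71, adjusted p = 0.00888), and Col1a2 -1.72 and -0.50 (-1.20, adjusted p = 0.00474). For Cyp26b1 the signs were opposite, -0.55 and 0.35 (-0.89, adjusted p = 0.00296), as they were for MMERGLN-int, with -0.65 and 0.11 (-0.75, adjusted p = 0.000972). Shisa3 differed by -1.80, and the histone gene Hist1h2ae by -0.60, having 0.010 in WT. Ripply3, a repressor of the Tbx family, Gpc3, a cell surface proteoglycan, and Fbn2, a fibrillin, named after their values were seen, differed by -1.20, -0.74 and -0.70. Igf2 had 0.38 in MCM2-2A and -0.35 in WT (0.74, adjusted p = 0.0081). For Crabp2 and Sox11 the difference was -0.75 and -0.55 and missed the threshold (adjusted p = 0.0188 and 0.0127), and for Phlda2, Pou5f1 and Gata2 it was 0.73, 0.45 and 0.31 (adjusted p = 0.133, 0.45 and 0.642).

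**Figure D5:**
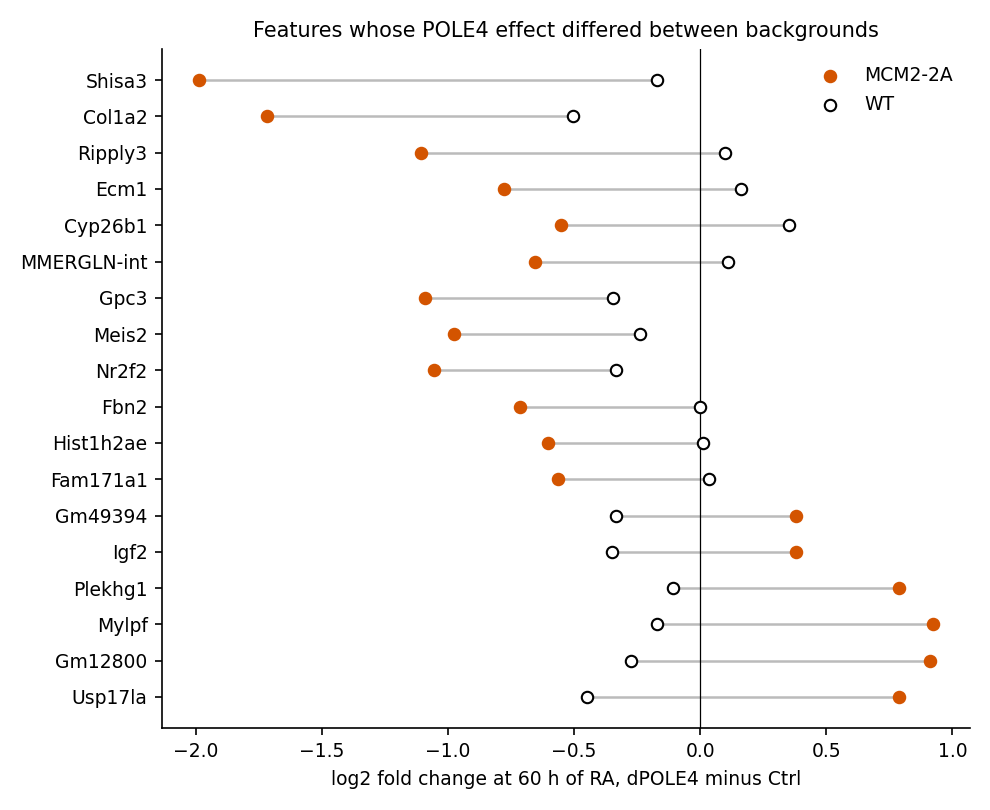
For 18 of the 19 features whose POLE4 effect differed between backgrounds at 60 h of RA, the filled point is the log2 fold change (dPOLE4 minus Ctrl) in MCM2-2A and the open point that in WT cells, with 3 libraries per group in each. The 12 features at the top are lower in MCM2-2A, from Shisa3 (-1.99 and -0.17) to Fam171a1, and the 6 at the bottom are higher.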

How the data were processed

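RNA was depleted of rRNA, and strand-specific paired-end libraries were sequenced. The authors trimmed reads with cutadapt 4.2, aligned them to mm10 with STAR keeping multimapping reads, and deposited raw counts per gene (GENCODE) and per repeat subfamily from TEcount, which shares multimapping reads among copies, so values of near-identical genes and of repeats are uncertain. No normalization had been applied to the deposited counts. Symbols and positions (GRCm38) were matched for 55141 of 55487 gene IDs.

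The 6 libraries were fitted alone with edgeR 4.0.16 (R 4.3.3): filterByExpr with a minimum count of 10 and total of 15, TMM factors over genes and repeats, and the quasi-likelihood F test with Benjamini-Hochberg adjustment over all features tested. Differences between backgrounds and times were interaction terms over 4 groups each. CPM are counts scaled to the TMM-adjusted library size. DESeq2 1.42.0, other scalings and filters, a replicate block and leaving out each library were alternatives.

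Members and lists were chosen with earlier results of these data known. Genes named were Pole4 and Mcm2, the 10 largest changes each way without overlap and with a mean of at least 1 CPM, and up to 5 members of each of 35 lists; other list members and Ripply3, Gpc3, Fbn2, Ecm1, Fam171a1, Mylpf, Plekhg1, Usp17la, Gm12800 and Gm49394 were named after their values were seen. The results of 4 genes are not reported here, though counts over lists and features include them. Replicates are described as biological, but not as separate cultures, so p-values measure the spread between these samples.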

Additional observations from a re-analysis of the deposited data

Results flagged for a closer look

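Each result here was picked out because the effect of POLE4 depletion differed in a direct test (edgeR's quasi-likelihood interaction test, adjusted p below 0.01) between MCM2-2A and WT cells at T60, or between T60 and T0 in MCM2-2A cells. Values are differences of log2 fold changes.

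Between backgrounds (MCM2-2A minus WT), the lower effects were those of Shisa3 (-1.80), Col1a2 (-1.20), Ripply3 (-1.20), the matrix protein gene Ecm1 (-0.93), Cyp26b1 (-0.89), MMERGLN-int (-0.75), Gpc3 (-0.74), Meis2 (-0.72), Nr2f2 (-0.71), Fbn2 (-0.70), Hist1h2ae (-0.60) and Fam171a1 (-0.59). The higher effects were those of Usp17la (1.24), Gm12800 (1.195), the muscle myosin light chain gene Mylpf (1.10), Plekhg1 (0.91), Igf2 (0.74) and Gm49394 (0.73). All 18 also passed with DESeq2, and 14 with the replicate block, which lost Mylpf, Plekhg1, Fam171a1 and Hist1h2ae. Without Ctrl MCM2-2A replicate 3, 1 of the 18 passed, and without dPOLE4 MCM2-2A replicate 2, 5 passed. Without Ctrl MCM2-2A replicate 2, dPOLE4 replicate 1 or Ctrl replicate 1, 8, 11 and 12 passed.

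Between times (T60 minus T0), the lower effects were those of Ripply3 (-1.73), Usp29 (-1.26), Cdkn2b (-1.17), Lin28b (-1.07), Crabp2 (-0.94), Gpc3 (-0.91), Ecm1 (-0.80), Sox11 (-0.80), Peg3 (-0.75) and Fam171a1 (-0.72). The higher ones were those of Lef1 (1.25), Tdgf1 (1.13), Phlda2 (1.04), Mylpf (1.00), Gdf3 (0.98) and Nr5a2 (0.76). These 16 all passed with DESeq2 and with the replicate block. None passed without Ctrl MCM2-2A replicate 2 or without Ctrl MCM2-2A replicate 3, 2 passed without dPOLE4 MCM2-2A replicate 2, 3 without dPOLE4 MCM2-2A replicate 1 and 7 without Ctrl MCM2-2A replicate 1.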

How the results depend on the processing

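For MCM2-2A at T60, 416 features changed. The count was 808 with no filter on low counts (425 higher, 383 lower), 639 with no fold threshold and 0 with glmTreat against 1.5-fold, where 562 had an unadjusted p below 0.05. At the thresholds used throughout, DESeq2 gave 546. Leaving out 1 library gave 84 to 573. For the difference between backgrounds (19), DESeq2 gave 90, no filter 193 and leaving out 1 library 1 to 38. For that between times (50), DESeq2 gave 178, no filter 272 and leaving out 1 library 0 to 60. The RA response of Ctrl WT cells (9144) stayed between 8636 and 10215. With the replicate block, the counts were 596, 22 and 163. The numbers did not pair the samples (correlations of deviations 0.20, -0.045 and 0.046). Of 86 named genes that changed, none turned direction under any of the 12 alternatives run for them, and 5 to 61 were lost with 1 library left out. They had passed the test in the same libraries, so the kept direction is no independent support. Values that had not passed the test and turned with 1 library left out were those of Pole4 (-0.081 to 0.030, positive without Ctrl MCM2-2A replicate 1, 0.0067, and without dPOLE4 replicate 2), Fgf5 (-0.42 to 0.17, positive without Ctrl replicate 3), Sox2 (-0.019 to 0.38), Lefty1 (-0.076 to 0.30) and Sox3 (-0.19 to 0.23), negative without dPOLE4 replicate 1, and mt-Ti (-0.29 to 0.64), mt-Atp8 (-1.14 to 1.12) and mt-Rnr1 (-0.17 to 0.40), negative without dPOLE4 replicate 3. The cause of these differences between settings was not tested.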

Other observations

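Some gene groups were looked at after their values had been seen, and their counts are descriptions only. Of 39 tested collagen genes 9 fell and none rose (23.1%, against 1.19% of all features), with a median log2 fold change of -0.32. With 1 library left out 5 to 9 fell, the fewest without Ctrl MCM2-2A replicate 3. Col2a1, the cartilage collagen, went from 154.7 ± 9.19 CPM in Ctrl to 83.7 ± 14.6 CPM in dPOLE4 cells (SD, n = 3; log2 fold change -0.89, adjusted p = 0.000934 by edgeR's quasi-likelihood test), and Col4a5, of basement membrane, from 21.04 ± 1.501 to 10.5 ± 0.456 CPM (-1.0002, adjusted p = 0.000499). Among 10 contractile genes, smooth muscle actin Acta2 and cardiac actin Actc1 fell (-0.95 and -1.29), which is 20%, against 1.19% of all features. Of 32 Rhox genes, an X-linked homeobox cluster, 7 could be tested, and all were positive. Rhox6 and Rhox9 rose (28.6%, against 1.07% of all features), Rhox6 from 28.0 ± 1.65 to 56.97 ± 8.57 CPM (1.03, adjusted p = 0.000499). Pramel4 rose beside Pramel6 and Pramel7, at 0.427 CPM in Ctrl and 1.36 CPM in dPOLE4, but no Pramel gene passed the test in 5 of the 6 fits with 1 library left out, and 2 rose in the sixth, without dPOLE4 MCM2-2A replicate 3. Copies within the Rhox and Pramel families are alike, so reads may be split among them.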
